A study of Mus musculus with 38 samples.

Results

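H3K4me1 domains that appeared in epidermal stem cells (EpdSCs) within a week of SOX9 induction, at sites that carried no H3K27ac until then, were followed through W2, W6 and W12. They were chosen by measured values: a domain of the W1 list was taken when it shared no base with a D0 domain and none with an H3K27ac peak of D0 or W1. Of 69439 W1 domains, 4138 were absent at D0 (5.96%), and 3857 of these met the whole rule (5.55% of the W1 list). With every list of a mark shortened to the length of the shortest by rank, 8336 domains met it. They were split by whether an H3K27ac peak overlapped them at W2, W6 or W12: 559 were acetylated later and 3298 were not. H3K4me1 and H3K27ac at D0 and W1, and H3K27ac at the later times, therefore defined the domains and are given as a description, while H3K4me1 after W1, the culture lists, position, genes and sequence letters were not used by the rule.

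As background, H3K4me1 is placed at enhancers by the MLL3 and MLL4 methyltransferases, and a site that carries it without acetylation is commonly called primed. H3K27ac, placed by p300 and CBP, marks enhancers and promoters in use. SOX9, an HMG-box transcription factor of hair follicle stem cells, can bind its motif in closed chromatin, whereas interfollicular EpdSCs normally lack it.

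EpdSCs were sorted from back skin of male K14rtTA; TRE-myc-Sox9 mice, in which the keratin 14 promoter drives the DOX-dependent activator in all basal epithelial cells and not only in the cells sorted. D0 mice had no DOX, and W1, W2 and W6 mice received a DOX injection at postnatal day 21 followed by DOX feed for 1, 2 or 6 weeks. W12 cells (12 weeks of DOX) came from neonatal skin of this genotype grafted onto Nude mice, so that time and graft cannot be told apart, and replicate 1 of W2 shared the libraries of W12. The sort kept cells negative for CD31, CD45, CD117, CD140a and CD34 and high for CD49f and Ly6A. In culture, Krt14-rtTA EpdSCs were transduced with DOX-dependent wild-type (WT) SOX9, ΔHMG-SOX9 without the DNA-binding domain, or ΔTA-SOX9 without the transactivation domain. Per the labels, each sample is a high or a low MNase digest of the chromatin, and the 2 culture samples differ in digest alone. Every list pooled the digests and, in skin, the replicates of its condition, so that no spread between replicates could be had and no p-value was computed. Intervals in brackets are exact 95% intervals that cover counting error only.

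A marker gene was counted when an H3K27ac peak lay within 1000 bp of one of its start sites. All 7 basal keratinocyte markers (Krt5, Krt14, Trp63, Itga6, Itgb4, Col17a1 and Ly6a) had such a peak in each of the 5 skin lists. Of 10 immune and 8 fibroblast markers, 0 had such a peak in any list. Endothelial markers had between 0 and 2 of 7, with Tek at W1, Pecam1 at W6 and W12 and Emcn at W12, and melanocyte markers between 1 and 2 of 7. The background level in the H3K27ac folds, a measure of read number, was lowest at W1 (0.299) and highest at W6 (0.677), with 0.501 at D0, 0.425 at W2 and 0.412 at W12. The absence of H3K27ac at W1, which the rule requires, was thus read at the lowest of these depths. The depth of the H3K4me1 lists is unknown.

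The letters around summits of later H3K27ac show what the gained domains held. In the 4 sequences below, which reach 100 bp to each side of W2 H3K27ac summits inside gained domains (GRCm38, plus strand), capitals mark AACAAAG or AACAATG or their reverse complements, the SOX letters counted further on. They were chosen after their letters were seen, because they hold the SOX letters. They lie in an intron of Runx1 (chr16:92725691-92725891), closest to Bnc1, a zinc finger gene of basal keratinocytes (chr7:81971239-81971439), closest to Cldn18, a tight junction gene (chr9:99720494-99720694), and closest to Tmem167 (chr13:90237662-90237862).
Runx1: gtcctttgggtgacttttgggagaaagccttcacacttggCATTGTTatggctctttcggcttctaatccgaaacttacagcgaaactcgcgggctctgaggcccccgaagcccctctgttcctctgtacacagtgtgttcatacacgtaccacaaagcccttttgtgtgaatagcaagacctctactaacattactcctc
Bnc1: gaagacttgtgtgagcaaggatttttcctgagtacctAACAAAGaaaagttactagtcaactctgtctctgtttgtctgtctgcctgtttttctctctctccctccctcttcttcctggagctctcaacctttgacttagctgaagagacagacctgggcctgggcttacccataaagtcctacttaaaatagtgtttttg
Cldn18: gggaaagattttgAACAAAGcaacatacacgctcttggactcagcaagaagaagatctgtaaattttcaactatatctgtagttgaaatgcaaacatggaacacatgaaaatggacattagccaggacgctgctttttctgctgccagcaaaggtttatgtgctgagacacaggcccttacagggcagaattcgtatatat
Tmem167: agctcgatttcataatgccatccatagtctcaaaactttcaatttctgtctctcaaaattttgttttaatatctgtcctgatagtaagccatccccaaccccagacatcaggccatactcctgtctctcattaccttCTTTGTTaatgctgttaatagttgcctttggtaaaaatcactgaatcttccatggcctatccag
All 4 of these domains carried H3K27ac at W2, W6 and W12, as did only 38 of the 559 later-acetylated domains. Other W2 windows with the SOX letters, closest to Pdzrn3 and Gpalpp1, had W2 folds of 7.72 and no H3K27ac at W12. The 4 shown therefore do not stand for all windows with the SOX letters. Most W2 summits on gained domains did not hold the SOX letters. Of the gained domains acetylated at all 3 times, the 2 with the highest W2 fold enrichment lie in an intron of Rab31 (chr17:65744217-65744417) and in intergenic sequence whose closest gene is Xylt1 (chr7:117700556-117700756), and neither window holds any of the SOX, RUNX, AP1 or GATA letters searched.
Rab31: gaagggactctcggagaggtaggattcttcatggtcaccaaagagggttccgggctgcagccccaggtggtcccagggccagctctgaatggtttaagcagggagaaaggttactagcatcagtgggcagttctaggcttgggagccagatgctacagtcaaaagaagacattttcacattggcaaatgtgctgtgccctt
Xylt1: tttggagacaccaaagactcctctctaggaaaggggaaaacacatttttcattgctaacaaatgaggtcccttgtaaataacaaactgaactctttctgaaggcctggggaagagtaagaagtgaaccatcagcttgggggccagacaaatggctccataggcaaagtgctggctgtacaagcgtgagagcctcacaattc
No letters are in capitals in these 2 windows.

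Later H3K27ac reached a minority of the gained domains and was rarely kept from list to list. The 559 acetylated domains were 14.5% of the gained domains (13.4 to 15.6%), against 40.3% of all W1 domains, 17.1% of the W1 domains without H3K27ac at D0 and W1, and 17.3% (16.9 to 17.7%) of the 39918 such domains that were already in the D0 list. At W2, 259 gained domains had a peak (6.72%, against 29.1% of all W1 domains and 7.21% of those without early H3K27ac). The numbers were 195 at W6 (5.06%, against 29.3% and 7.48%) and 270 at W12 (7.0%, against 25% and 8.34%). With peaks limited to a q-value of at most 0.001, the share with later H3K27ac was 9.18%. By the list in which H3K27ac appeared first, 259 were acetylated from W2, 118 from W6 and 182 at W12 alone.

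A peak in 1 list only was found for 432 of the 559 domains (77.3%, 73.6 to 80.7%), of which 159 were at W2 only, 91 at W6 only and 182 at W12 only. Peaks at all 3 times were found for 38 (6.80%, 4.86 to 9.21%). For the later-acetylated domains shared with D0 these shares were 71.3% (70.2 to 72.4%) and 6.79% (6.21 to 7.41%). Of the 259 domains acetylated at W2, 77 also had a peak at W6 (29.7%, 24.2 to 35.7%) and 61 at W12 (23.6%, 18.5 to 29.2%). Of the 2899 shared domains acetylated at W2, 42.7% (40.9 to 44.6%) had a peak at W6 and 26.3% (24.7 to 28.0%) at W12, so that the gained domains lay lower at W6 and overlapped at W12.

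**Figure D1:**
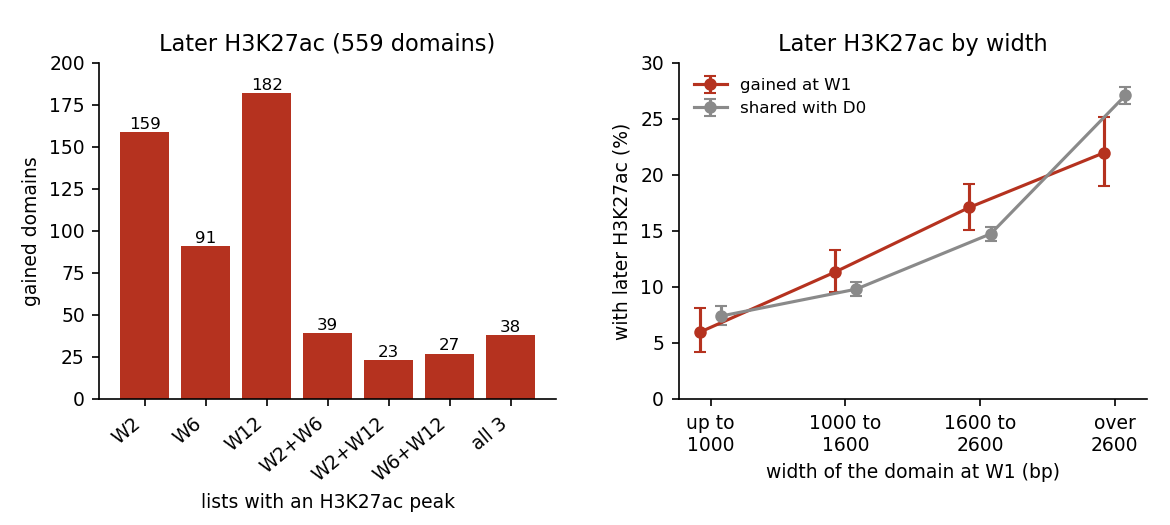
Left, the number of gained domains with an H3K27ac peak in each combination of the W2, W6 and W12 lists; the 3 bars for 1 list hold 432 of 559 domains. Right, the share (%) of domains with later H3K27ac against the width of the W1 domain (bp, 4 classes), for gained domains and for W1 domains shared with D0 without early H3K27ac, with exact 95% intervals; both sets climb with width and lie close together.

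Wider domains were acetylated more often, in the gained set as in the set shared with D0. Gained domains of up to 1000 bp had later H3K27ac in 5.97% (4.24 to 8.13%), against 7.41% (6.61 to 8.27%) of equally wide domains shared with D0. Between 1000 and 1600 bp the shares were 11.3% (9.55 to 13.3%) and 9.80% (9.19 to 10.4%), and between 1600 and 2600 bp 17.1% (15.1 to 19.2%) and 14.7% (14.1 to 15.4%). Above 2600 bp the order turned, with 22.0% (19.0 to 25.2%) of gained and 27.1% (26.4 to 27.8%) of shared domains. The gained domains were narrow and weak within their list: their median width was 1800 bp against 2600 bp for all W1 domains, their median p-value was 2.43e-12, and their median rank by p-value lay 82.2% of the way down the W1 list. With the W1 list cut by rank into 4 classes of equal size, later H3K27ac was found in the weakest class for 11.1% (9.85 to 12.4%) of the gained and 8.55% (8.09 to 9.04%) of the shared domains. In the class above it the values were 17.3% (15.1 to 19.7%) and 14.4% (13.8 to 15.0%). Gained domains thus had the smaller share over the whole set and the larger share in these 2 classes.

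The later H3K27ac peaks lay inside the gained domains and, at W2 and W6, had lower folds than their lists. At W2, 280 peaks overlapped the 259 domains, 97.5% of their summits fell inside the domain, and their median fold enrichment was 4.91 against 6.32 for all 29081 peaks of that list. At W6, 215 peaks had a median fold of 5.28 against 6.56. At W12 the 282 peaks had a median fold of 4.95, next to 4.96 for the whole list. Folds were set against their own list only, since the lists differ in depth.

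Of the 38 domains acetylated at W2, W6 and W12, the 10 with the highest W2 fold are named. The highest was a 2400 bp domain in an intron of Rab31, a small GTPase of endosomal traffic, with H3K27ac folds of 14.03, 16.9 and 9.21 in the W2, W6 and W12 lists. The H3K4me1 domain there spanned 9800, 11600 and 10800 bp at the same times. Next came an intergenic domain 318 kb from Xylt1, the xylosyltransferase that starts proteoglycan side chains, with folds of 11.2, 5.96 and 7.08. A 4600 bp domain over Myh1 and near Myh4, genes of skeletal muscle myosin, had folds of 9.82, 11.3 and 9.21. The other 7 had W2 folds between 7.02 and 9.52. They were closest to Aagab, a chaperone of adaptor complexes; Bank1, a B cell scaffold; Efna5, an ephrin; Borcs5, of the lysosome-positioning BORC complex; Stx17, a SNARE of autophagosomes; Sav1, a Hippo pathway scaffold; and Fyb, an adaptor of immune cells. The distance to the closest gene in these 7 ran from 10599 bp for Sav1 to 1598744 bp for Efna5, so that the closest gene need not be the one regulated.

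H3K4me1 itself was kept far more often where acetylation followed. At W2, 85.5% (82.3 to 88.3%) of the later-acetylated domains had an H3K4me1 domain, against 61.3% (59.7 to 63.0%) of those without later H3K27ac and 82.5% of all W1 domains and 74.6% of those without early H3K27ac. At W6 the shares were 92.1% (89.6 to 94.2%), 62.3% (60.6 to 63.9%), 87.5% and 81.5%. At W12 they were 84.4% (81.2 to 87.3%), 43.9% (42.2 to 45.6%), 81.9% and 73.7%. Found in all 3 later lists were 413 later-acetylated domains (73.9%, 70.0 to 77.5%) and 1044 of the others (31.7%, 30.1 to 33.3%). Found in none of the 3 were 13 (2.33%) and 668 (20.3%).

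The acetylated domains were wider at W1, with medians of 2200 and 1800 bp, but the difference in H3K4me1 held within each class of width. At up to 1000 bp, H3K4me1 at W12 was found for 73.0% (55.9 to 86.2%) of 37 later-acetylated domains and 32.4% (28.6 to 36.4%) of 583 others. Above 2600 bp it was found for 88.1% (82.1 to 92.7%) of 160 and 53.3% (49.1 to 57.5%) of 568. In the weakest rank class of the W1 list the shares at W12 were 83.4% (78.4 to 87.6%) and 40.0% (38.0 to 42.1%). In the strongest rank class, which held 13 and 19 of the domains, they were 92.3% (64.0 to 99.8%) and 89.5% (66.9 to 98.7%) and did not differ beyond counting error. Domains shared with D0 without early H3K27ac split in the same direction, with H3K4me1 at W12 in 94.7% (94.1 to 95.2%) of those acetylated later and 72.1% (71.6 to 72.5%) of the others. Each shared class lay above the gained class of the same later acetylation, at W12 and in all 3 lists together (88.3% with and 55.9% without later H3K27ac).

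**Figure D2:**
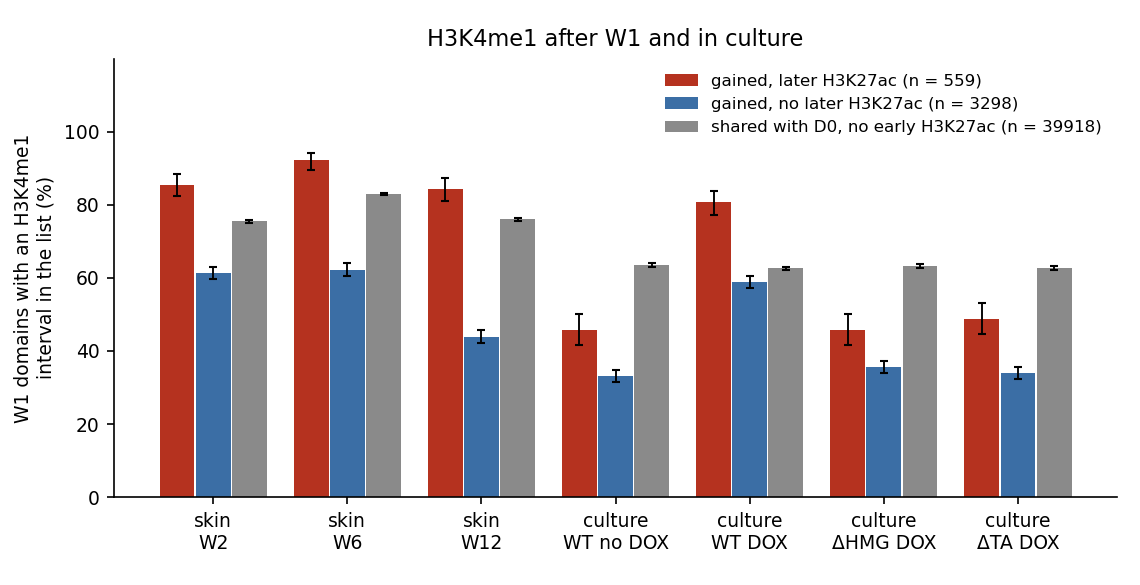
Share (%) of W1 domains that overlapped an H3K4me1 interval in each list not used by the rule, 3 of skin and 4 of culture, with exact 95% intervals. Later-acetylated gained domains (n = 559) exceed the gained domains without later H3K27ac (n = 3298) in all 7 lists, and domains shared with D0 (n = 39918) have nearly the same value in the 4 culture lists while both gained classes peak with WT SOX9.

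Acetylation and H3K4me1 were mostly called together. Of the domains with H3K27ac at W2, 93.4% had H3K4me1 at W2. The share was 99.5% at W6 and 85.2% at W12. By the time of appearance, H3K4me1 in all 3 later lists was found for 80.3% (74.9 to 85.0%) of the domains acetylated from W2, 78.8% (70.3 to 85.8%) from W6 and 61.5% (54.1 to 68.6%) of those acetylated at W12 alone.

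Where H3K4me1 was found again, the domain was more often wider than narrower, in the gained set as in the set shared with D0. At W2 the median was 2800 bp against 2000 bp at W1 over the same 2501 sites, and 71.2% (69.4 to 72.9%) were wider and 22.3% narrower. At W6, 55.8% (53.9 to 57.8%) were wider and 34.1% narrower, and at W12 58.1% (55.9 to 60.3%) and 33.8%. Of the shared domains found again, 58.2%, 47.7% and 53.5% were wider in the W2, W6 and W12 lists. In the weakest rank class of W1, where most gained domains lay, the wider shares of gained and shared domains were 73.9% (71.5 to 76.2%) and 65.6% (64.6 to 66.7%) at W2 and 57.2% (54.6 to 59.7%) and 49.2% (48.2 to 50.2%) at W6, and overlapped at W12, with 63.4% (60.5 to 66.2%) and 61.3% (60.2 to 62.3%). Among the 1457 sites found at every later time, the median went from 2000 bp at W1 to 3000, 2600 and 2400 bp in the W2, W6 and W12 lists. For the later-acetylated sites in this set it went from 2200 bp to 3400, 3200 and 2800 bp. At W2, 14.9% (13.5 to 16.4%) of the domains found again overlapped a domain of D0, as did 10.04% (8.91 to 11.3%) at W6 and 10.3% (8.98 to 11.8%) at W12, so that the later domain also covered H3K4me1 of D0.

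Many gained domains lay close to H3K4me1 of D0 without touching it. The median distance to the nearest D0 domain was 5600 bp, 193 gained domains (5.004%) had one within 1000 bp, and 10 lay directly beside one. Just outside the rule, 47 W1 domains without early H3K27ac shared 200 bp, the bin of the domain caller, or less with D0 and were not taken. An H3K27ac peak of D0 or W1 lay within 1000 bp of 19 gained domains, 4 of which were acetylated later.

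Some gained domains were strong and lasting without any H3K27ac. Among those with H3K4me1 at W2, W6 and W12, the domain with the smallest W1 p-value, 8.58e-166, spanned 7200 bp in the body of Zfp488, a zinc finger gene, 2164 bp from its start site, and measured 7000, 10200 and 6000 bp at W2, W6 and W12. The next 3 by p-value had W1 p-values between 2.11e-120 and 2.08e-93. They were closest to Tab2, an adaptor of the kinase TAK1; Stxbp6, a SNARE-binding protein; and Bmp2k, a BMP-inducible kinase. The widest gained domain of all, 9200 bp in an intron of Fhit, belonged to this class, and its site held domains of 4400, 2400 and 3800 bp later. The widest later-acetylated domain spanned 8400 bp, 81812 bp from 4930444P10Rik, with a W2 peak of 4.91-fold.

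By position the gained domains were mostly distal, whether acetylated later or not. Over 2500 bp from any annotated start site lay 87.2% (86.1 to 88.2%) of them, against 66.8% of all W1 domains, 78% of those without early H3K27ac and 77.2% (76.7 to 77.6%) of the domains shared with D0 without early H3K27ac. The shares were 86.9% (83.9 to 89.6%) with and 87.2% (86.0 to 88.3%) without later H3K27ac. Introns held 38.2% of the gained domains, intergenic sequence 37.1%, start-site regions 12.8% and exons 11.9%. 

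SOX letters were denser in gained domains than in domains already present at D0. The gained domains held 4822 matches to AACAAAG or AACAATG on both strands in 7620 kb, or 0.633 per kb (0.615 to 0.651), against 0.455 per kb (0.451 to 0.459) in domains shared with D0 without early H3K27ac and 0.450 (0.447 to 0.452) in all W1 domains. The 281 W1 domains that were absent at D0 but had H3K27ac at D0 or W1 held a like density, 0.643 per kb (0.590 to 0.698). At least 1 match lay in 68.6% of the gained domains, 61.8% of the shared ones and 68.8% of all W1 domains, which are wider. RUNX letters (TGTGGT or TGCGGT) did not differ in this way, with 0.911 per kb (0.890 to 0.933) against 0.923 (0.917 to 0.928). GATA letters (AGATAA) were slightly denser in the gained domains, with 0.672 per kb (0.653 to 0.690) against 0.631 (0.626 to 0.636). The gained domains had a median G+C content of 44.1% against 45.7%, so the densities were also taken within classes of G+C. The SOX difference was present in each class: 0.745 against 0.606 per kb up to 42%, 0.662 against 0.509 from 42% to 46%, and 0.479 against 0.353 above 46%. The SOX intervals of the gained domains did not reach the shared values in any of the 3 classes. The GATA difference did not persist, with 0.888 against 0.903 per kb up to 42%, 0.668 against 0.709 from 42% to 46% and 0.448 against 0.460 above 46%.

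The gained classes overlapped within counting error in SOX letters and lay apart in AP1 letters. Later-acetylated domains held 0.657 SOX matches per kb (0.614 to 0.703) and the others 0.628 (0.608 to 0.648). The AP1 letters TGANTCA were found 0.499 times per kb (0.462 to 0.539) in later-acetylated domains, 0.3996 times (0.384 to 0.415) in the others and 0.380 times (0.376 to 0.384) in the shared domains. Within classes of G+C the AP1 values with and without later H3K27ac were 0.546 (0.479 to 0.621) and 0.445 (0.417 to 0.476) per kb up to 42%, 0.506 (0.448 to 0.571) and 0.418 (0.392 to 0.445) from 42% to 46%, and 0.433 (0.367 to 0.506) and 0.330 (0.305 to 0.357) above 46%. Shared domains differed in the same direction by less, with 0.415 AP1 matches per kb (0.407 to 0.423) with and 0.370 (0.365 to 0.374) without later H3K27ac. A match is a run of letters and not a binding site. No motif contains another, though matches can overlap at their ends.

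**Figure D3:**
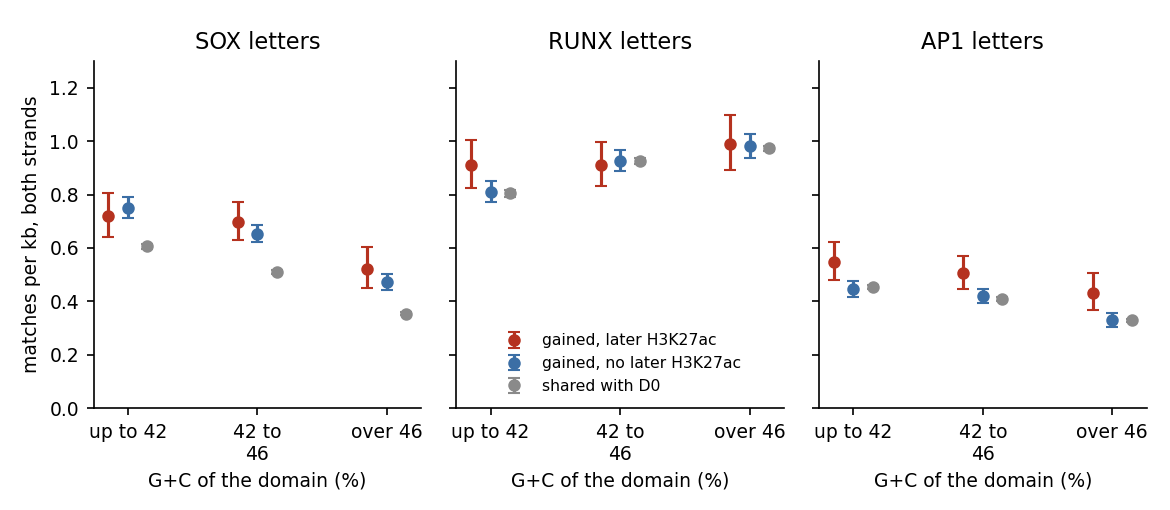
Matches per kb, both strands, to the SOX, RUNX and AP1 letters in W1 domains, in 3 classes of the domain's G+C content (%), with exact 95% Poisson intervals. In the SOX panel both gained classes lie above the domains shared with D0, in the RUNX panel the 3 sets lie close together, and in the AP1 panel the later-acetylated gained domains lie highest.

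At the summits of the later H3K27ac the SOX letters were also more frequent. Within 100 bp of the summit they were found at 13.9% (10.1 to 18.5%) of the 280 W2 peaks on gained domains, against 9.62% (8.61 to 10.7%) of W2 peaks on the shared domains and 7.31% (7.02 to 7.62%) of all W2 peaks. At W6 the shares were 12.1% (8.05 to 17.2%), 7.34% (6.49 to 8.26%) and 6.45% (6.17 to 6.73%). At W12 they were 14.2% (10.3 to 18.8%), 8.81% (7.90 to 9.78%) and 7.52% (7.25 to 7.81%). The SOX values on gained and on shared domains overlap in their intervals at W2 and W6, and the windows on gained domains were less rich in G+C (median 44.3% against 47.8% at W2). The AP1 letters kept no single order at these summits. On gained and shared domains they were found at 5% (2.76 to 8.25%) and 7.62% (6.72 to 8.60%) at W2. The shares were 11.6% (7.67 to 16.7%) and 6.11% (5.33 to 6.96%) at W6, and 7.09% (4.39 to 10.7%) and 6.01% (5.26 to 6.83%) at W12.

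The gained domains were spread over many genes. They were closest to 2597 of 21911 protein-coding genes (11.9%), 1904 of which had a single gained domain, and the later-acetylated domains were closest to 501 genes. The gene with most was Zbtb20, a zinc finger repressor, with 19 gained domains, 18 of them in its body and 1 acetylated later. Cxcr4, a chemokine receptor, had 14 with 2 acetylated later, Adgrl2, an adhesion receptor, had 13 with 1, and Adamts9, a secreted protease, had 11 with 0. Mitf, the regulator of melanocytes, had 11 with 0. The most later-acetylated domains per closest gene, noted after the values were seen, were 5 of 7 for Tmem167 and 4 of 8 for Myc. Those of Tmem167 lay 113 kb or more from its start site. Those of Myc lay between 148379 and 461591 bp from its closest start site.

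Among gene lists chosen for this tissue, each of the 4 genes in the RUNX list (Runx1, Runx2, Runx3 and Cbfb, the partner subunit) was the closest gene of a gained domain. The 22 gained domains of the listed hair follicle stem cell genes had no later H3K27ac, against 14.5% of all gained domains. That list does not hold Runx1, which was counted with the RUNX genes and had 2 of 4 domains acetylated later. Sites with H3K27ac at D0 or W1 were left out by the rule. Of 20 hair follicle stem cell genes 9 were closest to a gained domain (45%, against 11.9% of all genes), with 22 domains. They were Barx2 and Foxc1 with 5 each, Id2 with 3, Foxp1, Nfib and Postn with 2, and Lgr6, Sox9 and Tcf7l2 with 1. Distances from these domains to the closest start site ran from 19458 bp for Foxp1 to 478224 bp for Sox9. None of the 22 had H3K27ac at W2, W6 or W12, and 10 had H3K4me1 at all 3 times. The 4 genes of the RUNX list had 10 gained domains, 3 acetylated later: Runx1 and Runx3 had 4 each, and Runx2 and Cbfb had 1 each. Of 18 SOX genes 6 (33.3%) had 10 gained domains, and Sox5 (2 of 4 domains) and Sox2 (1 of 1) held the 3 acetylated ones, all from W2. The domains of Sox5 lay 98906 to 254506 bp from its closest start site, and that of Sox2 116805 bp. Sox9 was not counted in this list but with the hair follicle stem cell genes.

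For signalling, 5 of 15 Hedgehog genes (33.3%, against 11.9% of all genes) had 13 gained domains, of which 2 were acetylated later. The zinc finger effectors Gli2 and Gli3 had 4 each, the co-receptor Gas1 had 3, and the ligand Shh and the inhibitor Hhip had 1 each. One domain closest to Gas1 was acetylated from W2 and 1 closest to Gli3 at W12. The domains of Gas1 lay 38236 to 192236 bp from its start site, and those of Gli3 39821 to 395651 bp. Of 40 WNT pathway genes 11 (27.5%) had 16 gained domains, 4 of them acetylated later. Large genes with long intergenic flanks are the closest gene of more sequence, and list shares were not corrected for this.

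The epidermal identity, adhesion, AP1 and cartilage lists held 1 later-acetylated gained domain between them. Of 24 epidermal identity genes 5 (20.8%) had 8 gained domains with 0 acetylated later (Gata3 with 3, Tfap2a with 2, Klf4, Tfap2c and Zfp750 with 1). Their distances to the closest start site ran from 53425 bp for Tfap2a to 1013400 bp for Gata3. Of 16 adhesion and mesenchymal genes 5 (31.3%) had 7, of which 1, closest to Zeb2, was acetylated at W12. Of 10 AP1 genes (20% with a gained domain) Fosl2 had 2 and Atf3 had 1, and of 12 cartilage genes regulated by SOX9 Comp had 1, all without later H3K27ac. Of all protein-coding genes 11.9% had a gained domain, and 14.5% of all gained domains were acetylated later. None of the 7 basal keratinocyte markers was closest to a gained domain.

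Some markers of cells that the sort should leave out were also the closest gene of a gained domain, as were 11.9% of all genes. Of 7 endothelial markers 1 (14.3%) had a domain, near Tek and acetylated at W12, 2 of 10 immune markers (20%) had 3 (Ptprc with 2 and Cd207 with 1), and 1 of 8 fibroblast markers (12.5%), Lum, had 1. Of 7 melanocyte markers 2 (28.6%) had 17, with 11 closest to Mitf and 6 closest to Dct, 1 of the latter acetylated from W2. The domains of Dct lay 213985 to 368585 bp from its start site, and those of Ptprc 264467 to 386867 bp. Those of Mitf lay 5199 to 90680 bp away, and the domains of Tek, Cd207 and Lum 6089, 15144 and 18673 bp. An H3K27ac peak lay within 1000 bp of a start site for Dct and Pmel at W1. The same held for Pmel at D0 and W2 and for Mitf at W6 and W12. Of the 11 domains near Mitf, 10 were found in culture with WT SOX9 and 7 in culture without DOX. The part of other cell types in these domains was not tested.

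Runx1, a transcription factor of hair follicle stem cells, had 4 gained domains. The gene body also held other H3K4me1 domains and H3K27ac peaks at D0 and W1. An H3K27ac peak of D0, for example, lay 127 to 130 kb downstream of the outermost start site of the gene. The domain in its intron, chr16:92724601-92727400 (GRCm38), lay 27273 bp from the closest start site of the gene and 98.7 to 102 kb downstream of its outermost one. It had a W1 p-value of 2.90e-44, H3K4me1 domains of 4200, 4000 and 4400 bp at W2, W6 and W12, and H3K27ac folds of 6.28, 5.21 and 6.38. It thus carried both marks at all 3 later times. In culture it was found with WT SOX9 (3.74-fold) and in none of the other 3 lists. The other acetylated domain, chr16:93083801-93087000, lay 257652 bp from the closest start site, outside the gene, had an H3K27ac peak at W12 only (3.54-fold), and had H3K4me1 at W2 and W6 but not at W12. It too was found in culture with WT SOX9 only. The 2 domains between, 132052 and 228252 bp from the closest start site, had no later H3K27ac and were found in no culture list. Of these the nearer had H3K4me1 at W6 only, and the farther at W2, W6 and W12.

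**Figure D4:**
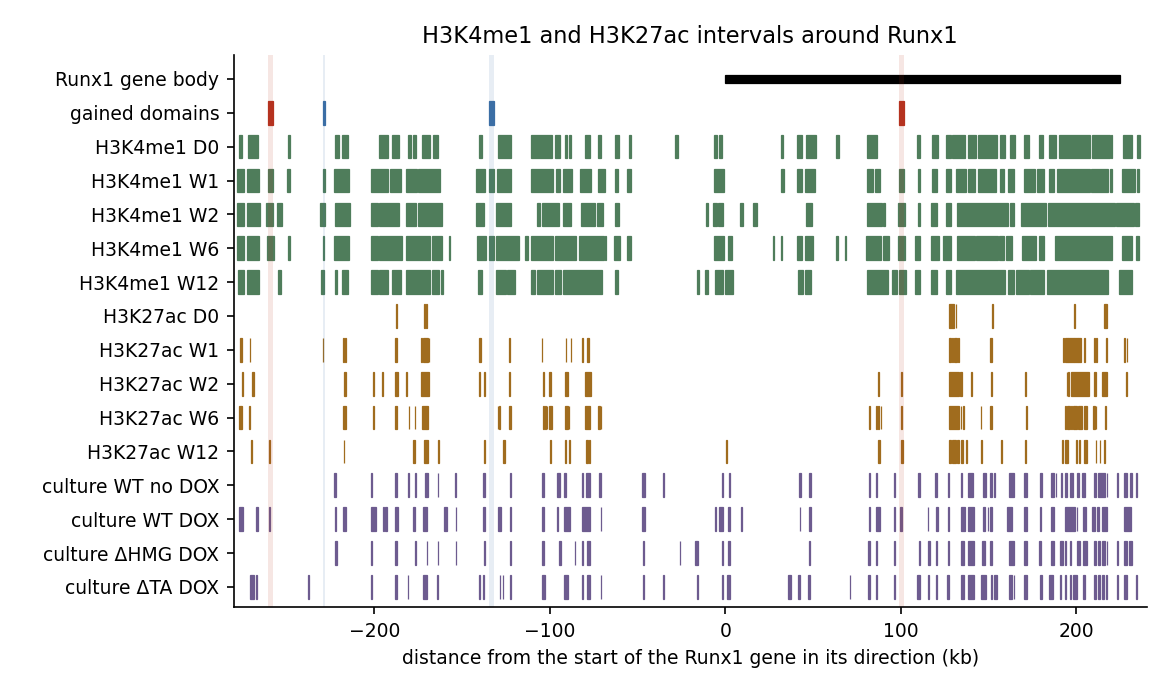
Called intervals around Runx1 against the distance from the start of the gene in its direction (kb), 1 row per list, with the gene body in black. The 4 gained domains are drawn in red (later H3K27ac) or blue (none) and shaded through all rows; the red domain inside the gene meets H3K27ac at W2, W6 and W12 and, in culture, the WT DOX list alone.

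In culture the gained domains were found more often with WT SOX9 than in the other 3 lists. With WT SOX9, H3K4me1 covered 62.0% (60.4 to 63.5%) of them, against 71.8% of all W1 domains and 62.5% of those without early H3K27ac. Without DOX the share was 35.0% (33.5 to 36.5%), against 70.7% and 61%. With ΔHMG-SOX9 it was 37.0% (35.5 to 38.6%), against 70.1% and 61%, and with ΔTA-SOX9 36.2% (34.6 to 37.7%), against 69.9% and 60.4%. The shares with ΔHMG and ΔTA thus lay 2.05 and 1.19 percentage points above that without DOX, and 24.97 and 25.8 percentage points under that with WT. Domains shared with D0 without early H3K27ac had between 62.6% and 63.5% in all 4 lists. With every list of a mark shortened to the shortest by rank, the gained share was 59.3% with WT SOX9 and 44.6% without DOX, a difference of 14.7 percentage points in place of 27.02.

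Domains found with WT SOX9 but not without DOX numbered 1225 (31.8%), against 290 (7.52%) for ΔHMG and 312 (8.09%) for ΔTA. The same shares over all W1 domains were not set beside these. Of all W1 domains, 71.8% were found with WT SOX9 and 70.7% without DOX. In WT and in no other culture list were 912 (23.6%, 22.3 to 25.02%), against 4.83% of all W1 domains and 6.23% of those without early H3K27ac. In the weakest rank class of the W1 list, the share found with WT SOX9 was 58.7% (56.7 to 60.6%) for gained and 52.3% (51.5 to 53.2%) for shared domains, while without DOX it was 36.2% (34.3 to 38.1%) and 54.5% (53.7 to 55.3%). The fold enrichment of the intervals themselves differed little, with medians of 3.79 with WT SOX9 and 3.78 without DOX. Where both WT lists held the site, the fold was higher with DOX at 567 of 1166 sites (48.6%).

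Later-acetylated domains were found in each culture list more often than the others, as were those shared with D0. With WT SOX9 the shares were 80.7% (77.2 to 83.9%) with and 58.8% (57.1 to 60.5%) without later H3K27ac, and without DOX they were 45.8% (41.6 to 50.03%) and 33.1% (31.5 to 34.8%). With ΔHMG-SOX9 they were 45.8% (41.6 to 50.03%) and 35.5% (33.9 to 37.2%), and with ΔTA-SOX9 48.8% (44.6 to 53.1%) and 34.0% (32.4 to 35.7%). For domains shared with D0 without early H3K27ac, the shares with and without later H3K27ac were 80.7% (79.8 to 81.7%) and 58.8% (58.3 to 59.3%) with WT SOX9, the same as in the gained classes to 3 digits, and 79.5% (78.5 to 80.4%) and 60.1% (59.6 to 60.7%) without DOX. Among gained domains of up to 1000 bp the WT shares overlapped, at 62.2% (44.8 to 77.5%) and 52.8% (48.7 to 56.9%), and in the strongest rank class the order was the opposite, with 11 of 13 and 19 of 19 domains. The domains found in WT and in no other culture list were 26.5% (22.9 to 30.3%) and 23.2% (21.7 to 24.6%) of these classes, which overlap within counting error. Found in all 4 culture lists were 35.6% (31.6 to 39.7%) and 21.3% (19.9 to 22.7%).

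AP1 letters were denser in the gained domains of all 4 culture lists than in those of the WT list alone or of none. The 912 gained domains of the WT list alone held 0.707 SOX matches per kb (0.669 to 0.746) and 0.343 AP1 matches (0.317 to 0.371). The 900 gained domains in all 4 culture lists held 0.591 SOX matches (0.557 to 0.627) and 0.549 AP1 matches (0.516 to 0.584). Within classes of G+C the SOX intervals of these groups overlapped in each of the 3 classes, with 0.807 (0.742 to 0.877) and 0.682 (0.607 to 0.762) up to 42%, 0.717 (0.656 to 0.783) and 0.653 (0.596 to 0.713) from 42% to 46%, and 0.535 (0.470 to 0.607) and 0.462 (0.412 to 0.517) above 46%. The AP1 intervals lay apart in each class, with 0.413 (0.367 to 0.463) and 0.606 (0.536 to 0.682), 0.321 (0.2799 to 0.366) and 0.586 (0.533 to 0.643), and 0.269 (0.223 to 0.321) and 0.469 (0.419 to 0.524). The 1134 gained domains in no culture list held 0.626 SOX matches per kb (0.592 to 0.661) and 0.359 AP1 matches (0.333 to 0.386). Their SOX interval overlapped that of the domains in all 4 lists, and their AP1 interval that of the WT list alone.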

How the data were processed

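H3K4me1, H3K27ac and total H3 were profiled by MINT-ChIP, a multiplexed ChIP-seq on barcoded chromatin, in the samples described above. Per the labels, reads were aligned with Bowtie2 2.2.9 and processed with SAMtools 1.9 and Picard, MACS2 2.1.1, SICER 0.0.36 and deepTools 2.5.4, and the study's methods name epic2 for H3K4me1; call settings are not given there, though the name of the W12 H3K27ac list carries a q-value setting that the other H3K27ac lists' names do not. The largest q-value in the 5 deposited H3K27ac lists lay between 0.0409 and 0.0498, with 0.0428 at W12. High and low MNase digests and, in skin, replicates were pooled in each of the 14 lists, so leaving out a replicate or pairing was not possible. The deposited skin H3K4me1 lists give a p-value per domain in bins of 200 bp. The deposited H3K27ac lists give a fold enrichment over background (a ratio), a −log10 q-value, a score and a summit. The deposited culture H3K4me1 lists give a fold enrichment, a −log10 q-value and a score, and which caller made them could not be told. Libraries' barcode files (14) were not used. Since H3K27ac folds fall on steps of whole reads (83.3% to 96.0% of values within 0.01), the background pileup was read from them as a measure of depth, which limits the precision of every share.

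From these lists, intervals were compared by a minimum overlap of 1 bp on 21 chromosomes, with 30 mitochondrial intervals set aside. Start sites (77221 of 55413 genes) came from the GENCODE M21 basic annotation and sequence from GRCm38. Domains were placed by the nearest start site, called distal over 2500 bp away, and named by the closest protein-coding gene. Shares carry exact Clopper-Pearson and densities exact Poisson 95% intervals, for counting error only. Genes were named by rule: the 10 domains with H3K27ac at W2, W6 and W12 of highest W2 fold, the 5 lasting domains without later H3K27ac of smallest W1 p-value, the 5 genes with most domains, listed genes, the widest domain of each class, and Runx1. One item named by this rule is not reported here. The domains and gene lists were chosen with earlier results of these data known. The overlap rule was tested on simulated intervals. Alternatives changed the overlap, rank, list length, q limit, later times, central part and distal limit. Python 3.11.15, numpy 2.4.6, pandas 2.3.3, scipy 1.17.1, pysam 0.24.0 and matplotlib 3.10.9 were used.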

Additional observations from a re-analysis of the deposited data

How the results depend on the processing

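No paired analysis was possible because every list pools the samples of its condition, and for the same reason no replicate could be left out. With an overlap of at least 50% of the shorter interval, the distal share was 86.0% and the share found in culture with WT SOX9 58.9%. With only W1 domains above the median rank, 368 domains remained in the count, 29.3% had later H3K27ac, 69.8% had H3K4me1 at W12 and 75% were found with WT SOX9. With all lists of a mark shortened to the shortest by rank, the count was 8336, with 12.3% acetylated later, 48.0% found at W12, 85.3% distal and 59.3% found with WT SOX9. Later H3K27ac was 9.18% with a q-value of at most 0.001, 9.77% when only W2 and W6 counted and 10.1% when only the central 600 bp was searched. A distal limit of 1000 bp gave 92.1% and one of 10000 bp 64.9%. The cause of these moves was not tested. The other 25 such values moved by less than their intervals or stayed within 1.5 times. H3K4me1 at W12 was more frequent with than without later H3K27ac in 11 of 11 alternatives, by 29.6 to 42.2 percentage points, and so was WT SOX9 in culture (17.0 to 22.9). The share with WT SOX9 exceeded that without DOX in 7 of 7, by 14.7 to 39.1 percentage points. The higher share of later H3K27ac in domains shared with D0 held in 9 of 11 alternatives, and not above the median rank or in the central 600 bp.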
